A study of Mus musculus with 2 samples.

Results

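Genes that send, block and receive bone morphogenetic protein (BMP) signals were followed across the nuclei of the developing mouse kidney. The 8 genes were chosen by name: the ligands Bmp2, Bmp3, Bmp4 and Bmp7, the secreted BMP-binding proteins Bmper and Grem1, and the type I receptors Bmpr1a and Bmpr1b. Each name matched 1 of the 32285 genes counted in both libraries. Single nuclei came from whole kidneys at 2 ages, with 1 library an age. The late embryonic library (E18.5) was made from pooled male and female kidneys of genotype Mycf/f;Mycnf/f (no Cre) on a mixed background, in which Myc and Mycn carry recombination sites but no recombinase is present. The library of postnatal day 3 (P3) was made from pooled male and female wild type kidneys, labelled C57BL/6J, whereas the methods of the study describe both stocks as mixed. Since each age is a single library with its own genotype and label of strain, these cannot be told apart, no test between ages was possible, and every interval given here is a 95% exact interval that covers counting error only.

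BMPs are secreted dimers of the TGF-β superfamily. They bind a type II receptor together with a type I receptor such as BMPR1A or BMPR1B, and the type I receptor then phosphorylates SMAD1, SMAD5 and SMAD9, which enter the nucleus with SMAD4 and act on targets such as the Id genes. Secreted binding proteins hold ligands away from receptors or carry them, so that the place of a ligand alone does not give the place of a signal. In the kidney, Bmp7 is known for maintaining nephron progenitors, Bmp4 for its part around the ureter, and Grem1 for permitting the outgrowth of the ureteric bud.

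The members lie on chromosomes 2, 3, 5, 9 and 14 of GRCm38, and their genes differ widely in length, from 7.15 kb for Bmp4 to 262 kb for Bmper and 332 kb for Bmpr1b. Bmper (ENSMUSG00000031963) covers chr9:23223076-23485200 on the plus strand and Bmpr1b (ENSMUSG00000052430) covers chr3:141837136-142169425 on the minus strand. The 250 bases before an annotated start of each are shown because most of the results below turn on these 2 members. RefSeq (GRCm38.p6) gave such windows for 5 of the 8 members. The windows are chr9:23222826-23223075 on the plus strand for Bmper and chr3:141982265-141982514 on the minus strand for Bmpr1b, written 5′ to 3′, with capitals at the core CTTTGA of a TCF/LEF site on either strand.
Bmper: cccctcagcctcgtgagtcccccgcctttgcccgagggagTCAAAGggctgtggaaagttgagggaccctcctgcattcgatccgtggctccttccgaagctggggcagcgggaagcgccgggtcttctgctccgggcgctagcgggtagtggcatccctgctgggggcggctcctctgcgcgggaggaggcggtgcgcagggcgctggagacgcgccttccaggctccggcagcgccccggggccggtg
Bmpr1b: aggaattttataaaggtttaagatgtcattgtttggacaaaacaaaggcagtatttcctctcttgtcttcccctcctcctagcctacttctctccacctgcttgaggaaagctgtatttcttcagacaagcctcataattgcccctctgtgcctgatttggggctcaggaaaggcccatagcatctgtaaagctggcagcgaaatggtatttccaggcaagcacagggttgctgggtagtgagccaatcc
The Bmper window held 1 match, read on the other strand as TCAAAG, and the Bmpr1b window held 0. Of 32851 windows of this length, 4544 (13.8%) held the core, so that 1 match is a common feature. The Bmpr1b window starts inside the gene as GENCODE draws it, and is 1 of 3 windows for that gene.

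The E18.5 library kept 21270 nuclei with 77321253 unique molecular identifiers (UMIs, each a counted RNA molecule) and a median of 3132.5 a nucleus, and the P3 library kept 11765 nuclei with 70055219 UMIs and a median of 4534. The libraries shared 69 barcodes. Clusters were formed with the members and 55 other genes of the pathway left out, and were called X-like from marker genes outside those lists, which gave 13 classes an age. At E18.5, 34.2% of nuclei stayed unnamed, and at P3 31.5%; clusters made mostly of called doublets held 16.4% and 15.7% of all nuclei. At E18.5 the nephron progenitor-like and ureteric tip-like nuclei formed classes of their own, while at P3 the cluster led by Eya1 carried markers of progenitors and early nephrons together and the tip-bearing cluster carried markers of tip and stalk together, so these are called nephrogenic (mixed) and ureteric (mixed). Levels are the UMIs of a gene summed over a class and scaled to a class total of 1000000 UMIs (CPM).

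Over the whole libraries, 29540 UMIs of Bmpr1b were counted at E18.5 and 48586 at P3. Bmpr1a gave 20965 and 19073 UMIs, Bmper 10418 and 10204, Bmp7 3654 and 2690, and Bmp4 2523 and 2127. Bmp3 gave 1282 and 629 UMIs, Bmp2 662 and 771, and Grem1 33 and 14. The receptors and Bmper could thus be placed with narrow intervals, Bmp2 and Bmp3 only in part, and Grem1 hardly at all. Several members differed in where they were highest. Bmper was highest in Eya1-led nuclei, Bmpr1b in ureteric nuclei and papillary-like stroma, and Bmp3 in urothelium-like nuclei. Bmpr1a was broad, with its lowest level in endothelium-like nuclei. Of the 7 members that reached 10 CPM in a class, 1 (Bmp3) was at least 2 times as high in its highest class as in the next at E18.5, beside 20.2% of all genes that reached that level, and 2 (Bmp3 and Bmper) at P3, beside 22.5%. These shares are near those of all genes.

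**Figure D1:**
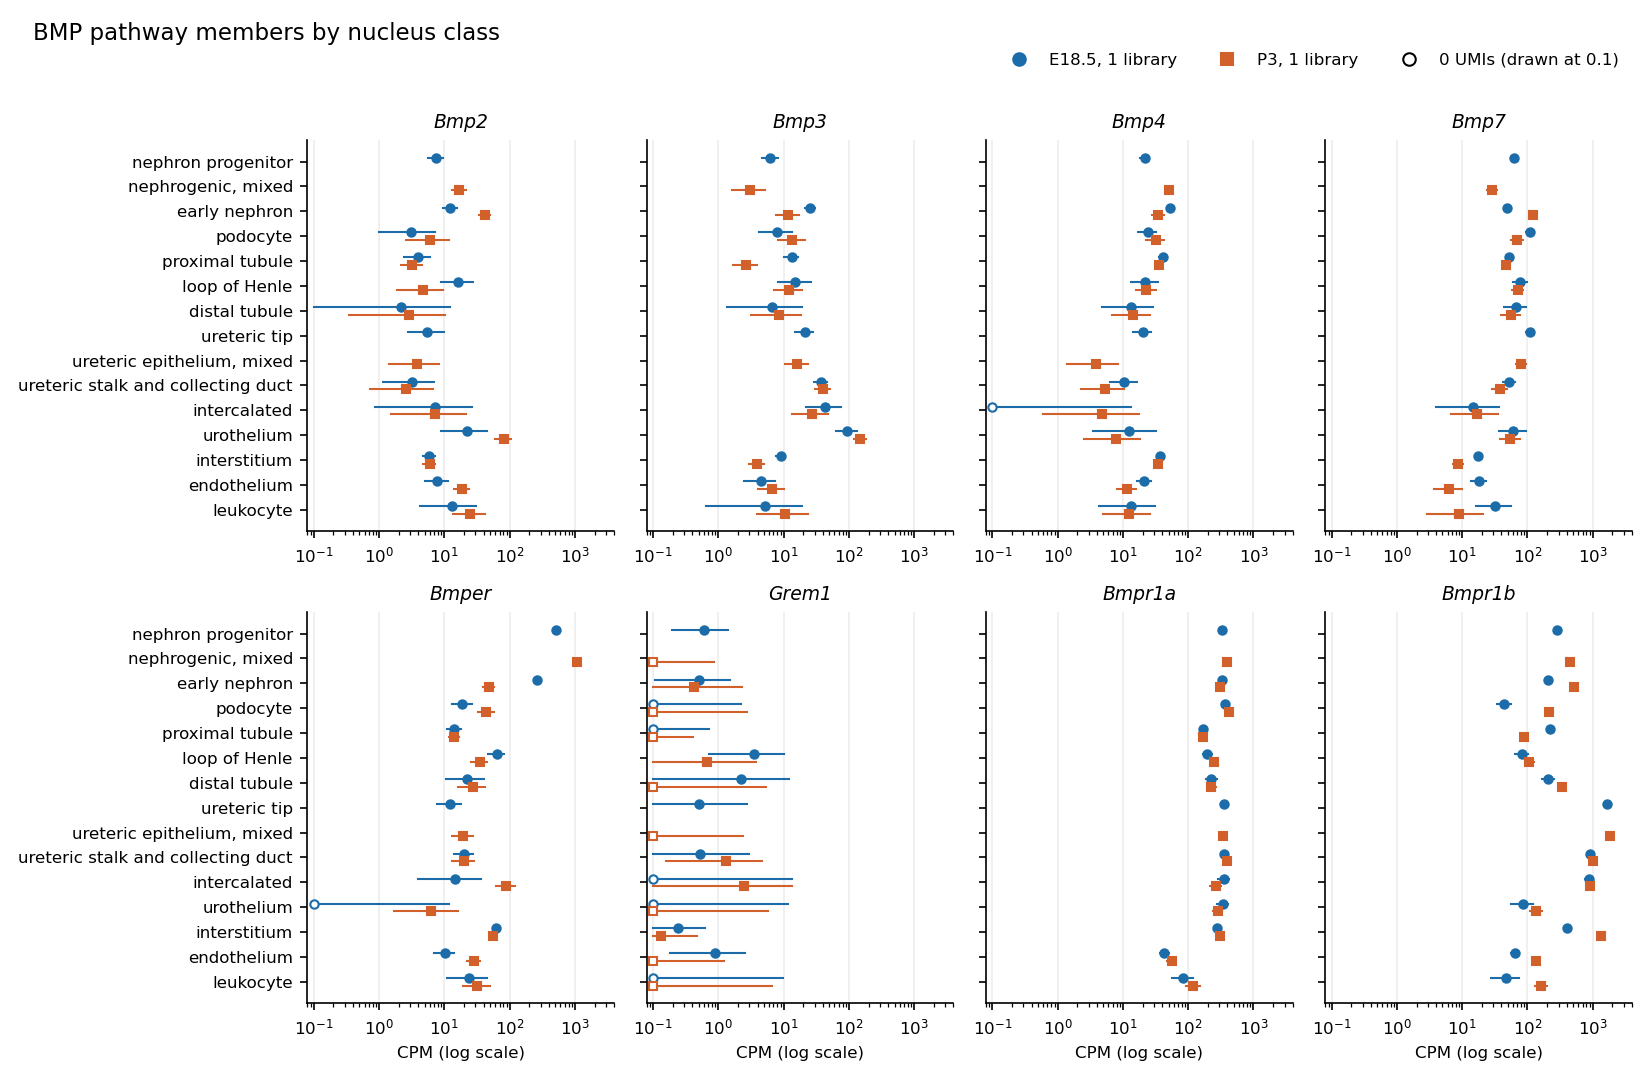
Level in CPM (log axis) of each member in each class, with the classes named by marker genes. Circles stand for E18.5 and squares for P3, with bars for 95% counting intervals. An open marker stands for 0 UMIs. Bmper reached 505 and 1064 CPM in its highest classes, whereas Bmpr1a stayed above 150 CPM in all classes other than endothelium and leukocyte.

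Among the ligands, Bmp7, a ligand needed for nephron formation, was spread over many epithelia. At E18.5 it stood at 111 CPM (95% interval 95.2 to 128) in podocyte-like nuclei and at 108 (94.3 to 124) in ureteric tip-like nuclei, levels that did not differ beyond their intervals. Loop of Henle-like nuclei followed at 78.3 and nephron progenitor-like nuclei at 61.8. The lowest classes with more than 1000 nuclei were endothelium, at 18.1, and interstitium, at 17.5. At P3 the order was led by early nephron-like nuclei, at 123 (110 to 138), followed by ureteric (mixed) nuclei at 80.1 (66.6 to 95.4) and loop of Henle-like nuclei at 71.7.

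The P3 lead of Bmp7 rested on 1 of the 2 early nephron-like clusters. The cluster of 156 nuclei, led by Rmst and Lrp4, stood at 235 CPM, and the cluster of 242 nuclei at 32.0. Without called doublets the nuclei were clustered again and the nuclei named early nephron-like stood at 39.0, so that the ratio of this class to all other nuclei went from 3.48 to 1.01. The cause of this shift was not tested.

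Bmp2, a ligand that shares its receptors with BMP4, was low. Its 7 UMIs in E18.5 urothelium-like nuclei gave 22.1 CPM (8.88 to 45.5), and loop of Henle-like nuclei followed at 16.4 (8.94 to 27.5). At P3 urothelium-like nuclei held 52 UMIs, or 81.1 CPM (60.6 to 106), and early nephron-like nuclei stood at 41.4 (33.6 to 50.4). The remaining P3 classes lay between 2.63 and 24.9. Urothelium-like nuclei thus led at both ages, but at E18.5 they did not differ from the next class beyond the intervals.

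Bmp3, an unusual family member known to oppose other BMPs, was also highest in urothelium-like nuclei. There it stood at 94.6 CPM (63.8 to 135) at E18.5 and at 149.7 (121 to 183) at P3. These levels were 5.82 and 19.5 times those of all other nuclei. Intercalated-like nuclei, at 43.4 and 26.8, and ureteric stalk and collecting duct-like nuclei, at 36.9 and 39.4, came next. The collecting duct-like nuclei at P3 were 2 clusters that differed for Bmp3, at 86.7 CPM in 109 nuclei and 15.8 in 148. Urothelium and collecting duct-like nuclei thus held more Bmp3 than proximal tubule-like nuclei, at 13.3 and 2.64, and endothelium-like nuclei, at 4.45 and 6.59.

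Bmp4 was low and shallow in its gradient. Early nephron-like nuclei were highest at E18.5, with 52.5 CPM (46.8 to 58.7), followed by proximal tubule-like nuclei at 40.6 and interstitium-like nuclei at 37.3. At P3 nephrogenic (mixed) nuclei were highest, with 50.1 (43.6 to 57.2), followed by proximal tubule at 35.3, early nephron at 34.7 and interstitium at 34.2. These last levels did not differ beyond their intervals. The highest class was 1.69 and 1.72 times all other nuclei. In ureteric stalk and collecting duct-like nuclei Bmp4 was at 10.5 and 5.26 CPM, and 0 UMIs were counted among 276619 of intercalated-like nuclei at E18.5, which allows up to 10.8 CPM.

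Bmper, which binds BMPs outside the cell, was the member most tied to the nephrogenic nuclei. At E18.5 nephron progenitor-like nuclei held 4218 of its UMIs, 40.5% of the library, at 505 CPM (489.5 to 520.0). Early nephron-like nuclei followed at 260.4 (247 to 274), and the next named class, loop of Henle, stood at 63.1. At P3 the nephrogenic (mixed) nuclei stood at 1064 (1033 to 1095), 12.1 times the next class and 44.8% of the library's Bmper UMIs. Other P3 classes lay between 6.24 and 87.6 CPM. Bmper was among the leading genes of that cluster, although it took no part in the clustering.

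After each nucleus was thinned to 1000 UMIs, 28.3% of the E18.5 nephron progenitor-like nuclei (26.5% to 30.1%) held a Bmper UMI, beside 1.37% of endothelium-like nuclei. In P3 nephrogenic (mixed) nuclei the share was 50.7% (47.2% to 54.1%), beside 1.84% in proximal tubule-like nuclei. Without thinning the shares were 48.5% and 73.0% in the nephrogenic nuclei, and 3.09% and 8.98% in the low classes, whose median depths were 2833 and 6137 UMIs against 3147.5 and 4752. The difference between classes was thus present nucleus by nucleus and not only in the sums.

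Within the nephrogenic nuclei, clustered again, Bmper did not simply follow Eya1, a progenitor gene. At E18.5 the subclusters with the most Eya1, at 1874 and 1446 CPM, held 417 and 753 CPM of Bmper. A subcluster of 169 nuclei, led by Tmem132c, Foxp2 and Tafa1, held 1205 CPM of Bmper beside only 155 of Eya1. The subclusters named early nephron, with Lhx1 between 254 and 510 CPM, held between 14.4 and 62.1. At P3 Bmper was at 1690.5 and 1027 CPM in the subclusters richest in Eya1, at 247.5 in an intermediate subcluster that held both Eya1 and Lhx1, and at 86.4 or less elsewhere.

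**Figure D2:**
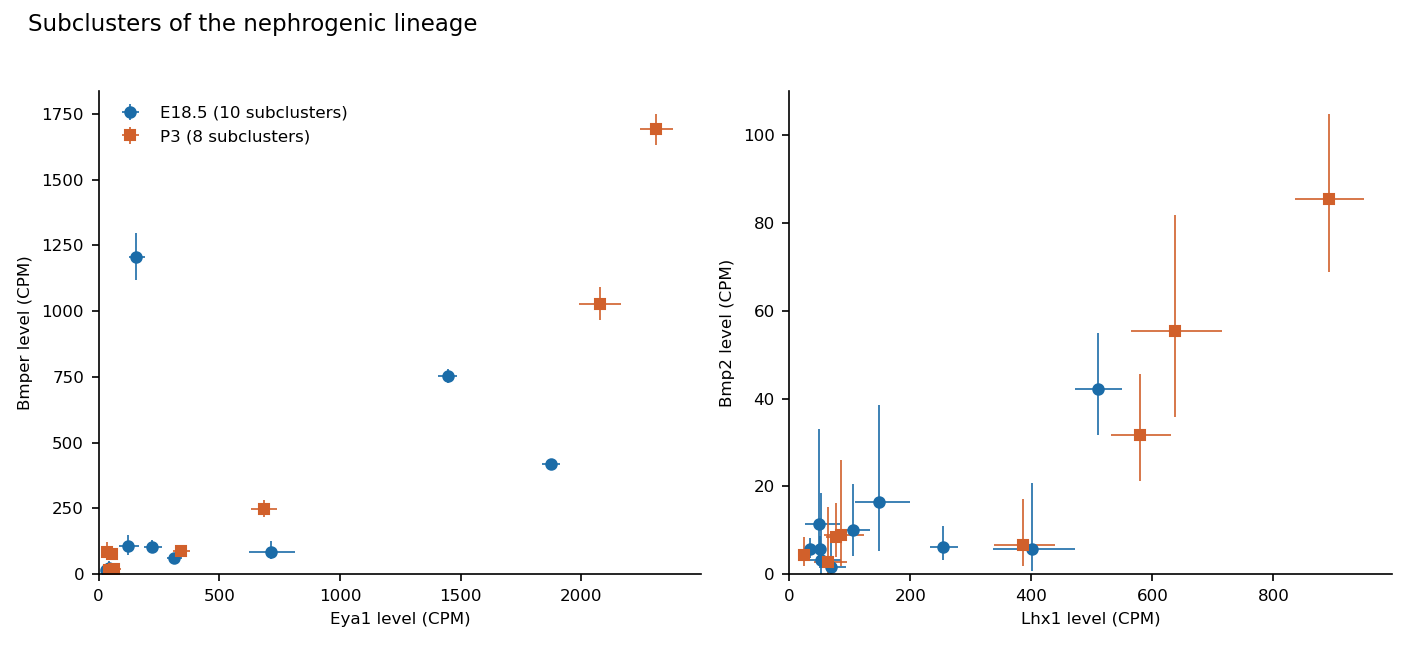
Each point is a subcluster of the nephrogenic nuclei (10 at E18.5, 8 at P3), with Bmper against Eya1 on one side and Bmp2 against Lhx1 on the other, in CPM. Bmper was highest at 1690.5 CPM in the P3 subcluster richest in Eya1, and at E18.5 in a subcluster with 155 CPM of Eya1.

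Bmp2 had the opposite place. It was at 42.2 CPM in the E18.5 subcluster with the most Lhx1, a gene of renal vesicles and later nephron precursors, and at 85.5 in the P3 subcluster with the most Lhx1. In the Eya1-rich subclusters it lay between 4.24 and 8.48. Bmp7 was highest at P3 in a Lhx1-bearing subcluster of 72 nuclei, at 286 CPM, and at 139 in the subcluster richest in Lhx1. In the Eya1-rich P3 subclusters Bmp7 stood at 21.7 and 29.2. Bmper and Bmp2 were thus highest in different subclusters of the lineage at both ages, and neither gene had a part in forming them.

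A pair of clusters led by Sim2, Nrcam and Tfap2b, transcription factor and adhesion genes, stayed unnamed because their leading genes and their markers did not point to 1 class. At E18.5 its 1074 nuclei held Bmp7 at 101 CPM, Bmp3 at 50.3 and Bmp2 at 40.6. At P3 its 202 nuclei held Bmp7 at 87.5, Bmp3 at 23.4 and Bmp2 at 3.46. For Bmp2 the E18.5 level was above that of every named class of that age. Its interval (34.3 to 47.7) overlapped that of urothelium-like nuclei (8.88 to 45.5).

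Grem1, an antagonist of BMP2, BMP4 and BMP7, was barely detected. Of the 33 UMIs at E18.5, 12 fell in unnamed nuclei and the other 21 over 8 named classes, with at most 5 in any of them. Of the 14 at P3, 7 fell in unnamed nuclei and 7 over 5 named classes. In proximal tubule-like nuclei 0 UMIs were counted at both ages, which allows up to 0.594 CPM at E18.5 and 0.331 at P3. In interstitium-like nuclei there were 4 UMIs among 16543219 and 2 among 15158588. No class order and no age ratio is given for Grem1 at this depth.

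Bmpr1a, a type I receptor needed in many tissues, was the evenest member. At E18.5 podocyte-like nuclei stood at 366.5 CPM (338 to 397), and the next 4 classes, ureteric stalk and collecting duct at 359, ureteric tip at 354, intercalated at 351 and urothelium at 341, lay within each other's intervals. Nephron progenitor-like nuclei stood at 326, interstitium at 273 and proximal tubule at 171. At P3 podocyte-like nuclei at 418 (383.5 to 454), nephrogenic (mixed) nuclei at 400.3 and stalk and collecting duct-like nuclei at 399.0 led. The low end was the same at both ages: leukocyte-like nuclei were at 84.1 and 119, and endothelium-like nuclei at 43.3 (36.6 to 50.9) and 56.1 (47.9 to 65.2). Between the highest and the lowest class, the share of thinned nuclei with a UMI went from 29.4% to 3.30% at E18.5 and from 34.1% to 6.14% at P3.

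Bmpr1b, the other type I receptor, was steeply graded. Ureteric tip-like nuclei held 1631 CPM (1575 to 1688) at E18.5, 1.80 times the next class and 4.67 times all other nuclei. Stalk and collecting duct-like nuclei followed at 904 and intercalated-like nuclei at 875, and podocyte-like nuclei were lowest, at 44.0 (34.5 to 55.5). At P3 ureteric (mixed) nuclei held 1859 (1792 to 1928), interstitium-like nuclei 1321 (1302 to 1339), and stalk and collecting duct-like nuclei 1023 (973 to 1075). Proximal tubule-like nuclei were then lowest, at 87.7 (81.7 to 94.0). Of the 12 steps between neighbouring classes in the order, 6 at E18.5 and 9 at P3 were larger than their intervals allow for equal levels. This was more than for any other member, but Bmpr1b also had the most UMIs, which narrow the intervals. Of the thinned ureteric tip-like nuclei 73.7% held a Bmpr1b UMI, and 73.9% of ureteric (mixed) nuclei at P3, beside 4.36% of podocyte-like nuclei at the first age, and at the second 7.91% among those resembling proximal tubule. At E18.5 podocyte-like nuclei stood at the top of the order for Bmpr1a and at the bottom for Bmpr1b, in neither case apart from their neighbour, since leukocyte-like nuclei held 47.3 CPM of Bmpr1b.

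Within the interstitium-like nuclei, Bmpr1b differed between the subsets, which were named from marker genes, while position was not measured. At E18.5 the papillary-like subset of 566 nuclei held 1192 CPM (1149 to 1235.5) and the cortical-like subset of 1316 nuclei 104 (94.1 to 115), a ratio of 11.5 (10.3 to 12.7). At P3 the 213 papillary-like nuclei held 2964 (2877 to 3054) and the 671 cortical-like nuclei 164.5 (149 to 181), a ratio of 18.02 (16.27 to 20.02). Nephrogenic zone-like stroma was low at both ages (118 and 212), and mural-like stroma was between, at 367 and 411. High levels were not kept to the papillary-like subset. Subclusters led by Zfp536, in no named subset, stood at 554 and 2157, and 28 smooth muscle-like nuclei at P3 at 1143. The difference between papillary-like and cortical-like nuclei was present at both ages, in each library on its own.

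Bmpr1a showed no such difference. Its papillary over cortical ratio at E18.5 was 1.05 (0.949 to 1.16), and that at P3 was 0.902 (0.7996 to 1.02). Bmp4 was higher in the papillary-like subset at both ages, 1.69 times (1.33 to 2.16) and 1.76 times (1.19 to 2.62) the cortical level. Its highest stromal level was in 28 smooth muscle-like nuclei at P3, 94.6 CPM (48.9 to 165) from 12 UMIs. Bmper was 3.46 times as high in the papillary-like subset at E18.5 (2.75 to 4.36) but 1.08 times at P3 (0.736 to 1.56). The stromal nuclei that fell in no named subset were 2581 at E18.5 and 2185 at P3, with Bmpr1b at 353 and 1393 CPM.

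**Figure D3:**
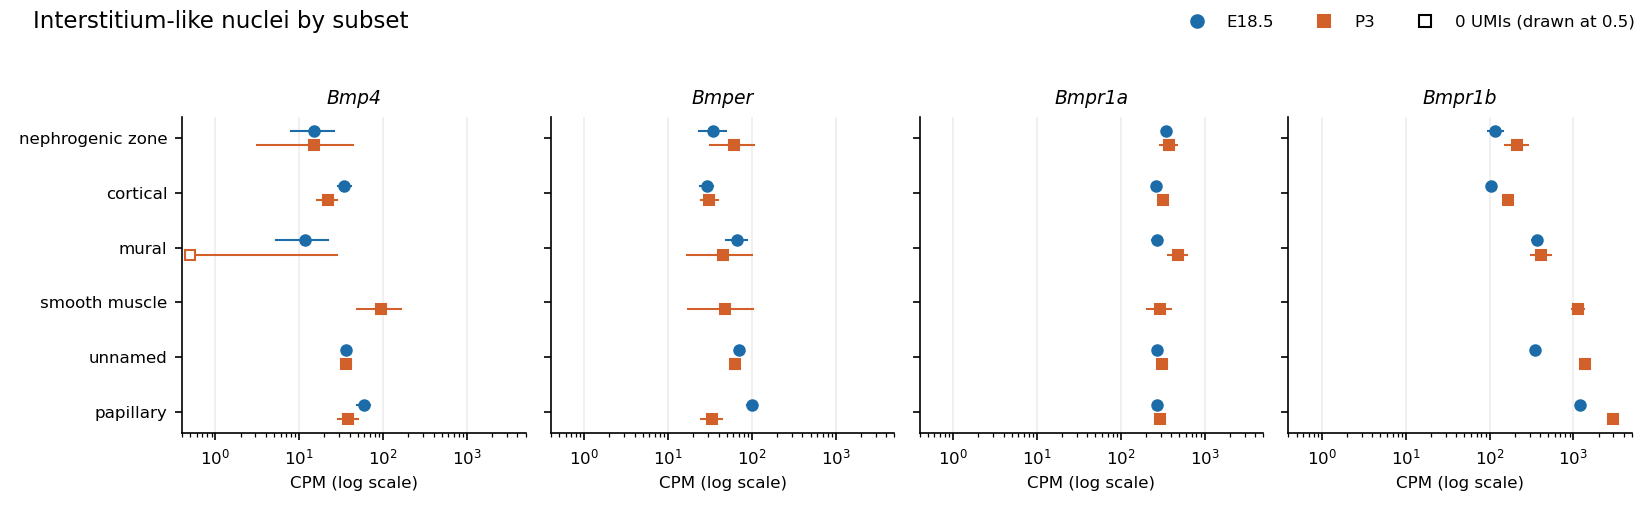
Level in CPM of Bmp4, Bmper, Bmpr1a and Bmpr1b in the subsets of the interstitium-like nuclei at each age, with 95% counting intervals; an E18.5 subcluster of 160 nuclei with endothelial markers is left out. Bmpr1b stood at 104 CPM in cortical-like and 1192 in papillary-like nuclei at E18.5, and at 164.5 and 2964 at P3, whereas Bmpr1a lay within 260.5 to 479.7 in all subsets shown.

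A small cluster of the interstitium-like class led by Ebf2 stood above that class as a whole for Bmper; the clusters of the 2 ages were matched after their values had been seen. The P3 cluster also had Car3, Pparg and Plin1, genes known from adipocytes, among its leading genes, and the E18.5 cluster did not. Its 133 nuclei at E18.5 stood at 376.5 CPM (323 to 437) and its 69 nuclei at P3 at 425.5 (360 to 500). All interstitium-like nuclei together stood at 62.1 and 54.8. The same nuclei were low in Bmpr1b, at 64.6 and 172.5 CPM, and had little Eya1, at 28.0 and 77.6. Eya1 was at 1726 and 1714 CPM in the Eya1-led clusters.

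The levels at P3 were next set against those at E18.5 in 9 lineages, with tip-like and stalk-like nuclei joined as ureteric epithelium and progenitor and early nephron-like nuclei joined as nephrogenic. A ratio past 1.5 in either direction, for genes that reached 10 CPM at an age, is called higher or lower. The median ratio of all genes moved with the length of the gene: in nephrogenic nuclei it went from -0.85 on the log2 scale below 5 kb to 0.41 above 200 kb, and in interstitium-like nuclei from -1.12 to 0.39. The headers of the 2 matrices name different releases of the counting program. The part of that difference, or of RNA quality, in the ratios was not tested. The plot of age ratios gives the median of genes of similar length beside each ratio, and the text gives it for some of them.

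In nephrogenic nuclei 3 of 7 members were higher at P3, beside 7.98% of all genes, and 1 was lower, beside 19.5%. Bmper went from 404 to 701 CPM, a ratio of 1.73 (1.67 to 1.80) or 0.79 on the log2 scale, beside a median of 0.41 for genes above 200 kb. Bmpr1b went from 252 to 476, a ratio of 1.89 (1.80 to 1.98) or 0.92 on the log2 scale, in the same length class. Without called doublets that ratio was 1.64, and with Leiden clustering 1.72. Bmp2 went from 9.42 to 25.6, a ratio of 2.72 (2.15 to 3.43), against a median of -0.28 on the log2 scale for genes of 10 to 20 kb. The Bmp2 ratio was 2.12 without called doublets. Bmp3 went from 14.1 to 6.13, a ratio of 0.434 (0.302 to 0.610). Bmp4, Bmp7 and Bmpr1a had ratios of 1.30, 1.11 and 1.13 and were not called.

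Early nephron-like nuclei made up 1701 of 4155 nephrogenic nuclei at E18.5 and 398 of 1215 at P3. The 2 subclusters richest in Eya1 at each age were therefore also compared on their own, 2520 nuclei against 576, matched after their values had been seen. Eya1 was not among their 10 leading genes, and the larger P3 subcluster was led by Bmper itself. There Bmper went from 563 to 1452 CPM, a ratio of 2.58 (2.47 to 2.68). Bmp7 went from 58.9 to 24.4, a ratio of 0.415 (0.319 to 0.532), in contrast with 1.11 over the whole lineage. Bmp4 had a ratio of 1.71 (1.35 to 2.17), Bmpr1b of 1.51 (1.41 to 1.62) and Bmpr1a of 1.32 (1.23 to 1.41), while Eya1 itself had 1.32. Bmp2 was at 5.64 and 5.77 CPM. In the clusters of the whole libraries led by Eya1, 2454 nuclei against 817, Bmp2 had a ratio of 2.26 (1.59 to 3.23) and Bmper of 2.11 (2.02 to 2.20). In the Eya1-rich subclusters Six2 had a ratio of 0.533 and Cited1, an early progenitor gene, went from 32.3 to 1.36 CPM. Cited1 was also at 23.5 CPM in cortical-like stroma at E18.5 and 1.23 at P3, so that its UMIs were not kept to progenitors in the E18.5 library. The part of RNA from other cells in these values was not tested.

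In interstitium-like nuclei 1 of 5 members was higher, beside 7.12%, and 1 was lower, beside 24.5%. Bmpr1b went from 403 to 1321 CPM, a ratio of 3.27 (3.19 to 3.37) or 1.71 on the log2 scale, beside a median of 0.39 for genes above 200 kb. The share of thinned nuclei with a UMI went from 23.7% (22.6% to 24.9%) to 48.7% (46.9% to 50.4%), and from 42.9% to 72.8% without thinning. In leukocyte-like nuclei the thinned share went from 3.77% to 13.3%. The ratio was 2.49 (2.37 to 2.61) in the papillary-like subset, 1.58 (1.37 to 1.82) in the cortical-like subset, 2.15 (1.95 to 2.36) in dividing nuclei and 3.89 (3.70 to 4.10) in subclusters led by Zfp536. The P3 subcluster of the last pair, 545 nuclei, was led by Vwc2 ahead of Zfp536, had 6 of 10 endothelial markers raised and held 11.7% called doublets, beside 3.396% in its E18.5 counterpart of 1119 nuclei. Nephrogenic zone-like stroma stood at 118 (95.9 to 143) and 212 (153 to 287), and stroma in no named subset at 353 and 1393. In mural-like stroma the levels of 367 (325 to 412) and 411 (309 to 536.5) overlapped in their intervals. The mural-like nuclei were not alike, however: 219 of 245 at E18.5 lay in a subcluster led by Dkk2 and Serpini1. The 34 at P3 were led by Ren1. Bmp7 went from 17.5 to 8.77 CPM, a ratio of 0.502 (0.406 to 0.619), Bmp4 had a ratio of 0.918 (0.815 to 1.03) and Bmper 0.882 (0.804 to 0.968).

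**Figure D4:**
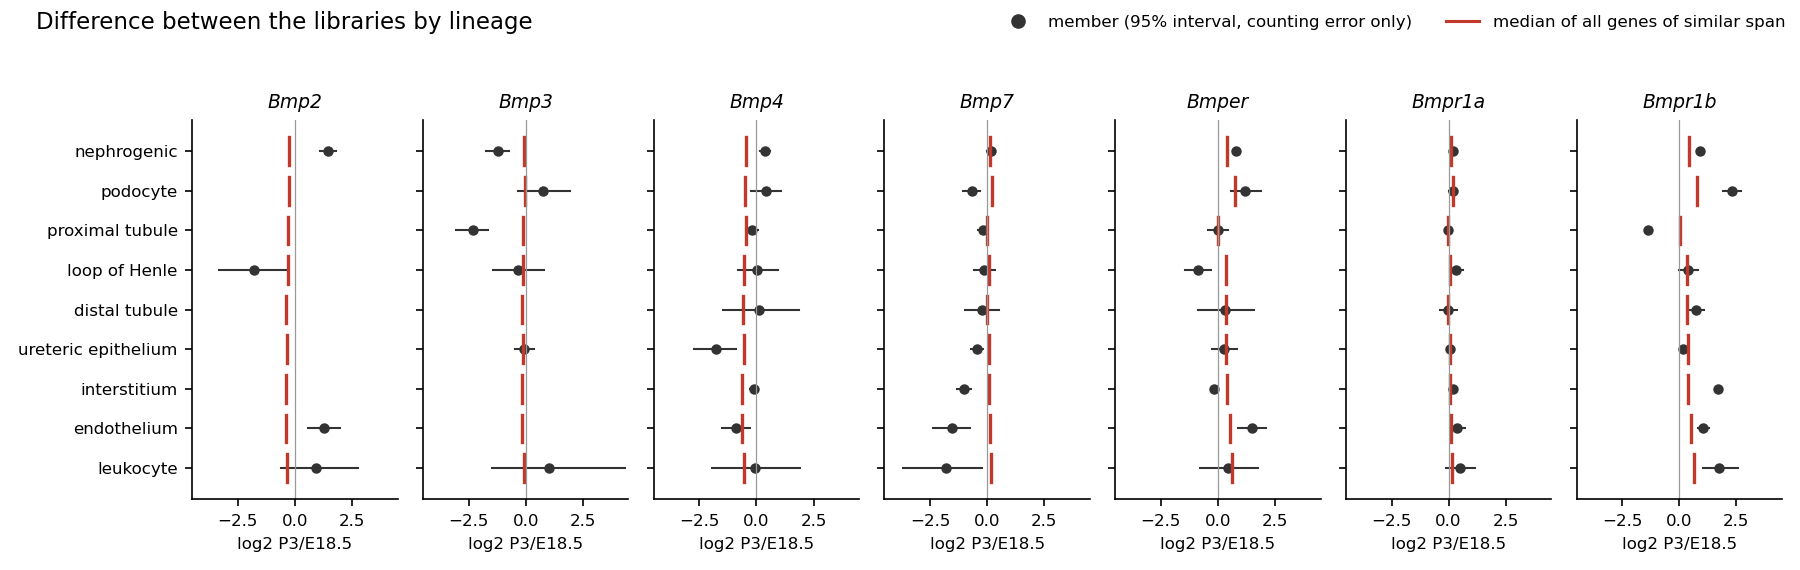
Log2 of the P3 over E18.5 ratio of 7 members in 9 lineages, with 95% counting intervals; the red tick is the median of all genes of similar genomic length. Bmpr1b lay at 1.71 in interstitium and at -1.36 in proximal tubule, whereas Bmpr1a lay between -0.03 and 0.50 in all 9.

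In ureteric epithelium 0 of 6 members were higher, beside 8.62%, and 1 was lower, beside 23.8%. Bmp4 went from 60 UMIs, or 15.4 CPM, to 14 UMIs, or 4.54 CPM, a ratio of 0.295 (0.152 to 0.533) or -1.76 on the log2 scale, beside a median of -0.54 for genes of 5 to 10 kb. Bmpr1b, at its highest level among the 9 lineages here, went from 1277 to 1446 CPM, a ratio of 1.13 (1.09 to 1.18). The papillary-like subset of the interstitium stood higher at P3, at 2964. Bmp3 had a ratio of 0.958, which was 0.644 without called doublets and 0.543 with Leiden clustering, both past the 1.5-fold limit. Bmp7 had a ratio of 0.729. The 2 lineages with the highest Bmpr1b at P3 thus had unlike age ratios, 1.13 in ureteric epithelium and 3.27 in interstitium.

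In proximal tubule-like nuclei 0 of 6 members were higher, beside 10.6%, and 2 were lower, beside 26.1%. Bmp3 went from 13.3 to 2.64 CPM, a ratio of 0.199 (0.120 to 0.322), and Bmpr1b from 224.5 to 87.7, a ratio of 0.391 (0.356 to 0.428) that was 0.592 without called doublets. On the log2 scale these were -2.33, beside a median of -0.14 for genes of 20 to 50 kb, and -1.36, beside 0.02 for genes above 200 kb. Bmp4 and Bmp7 had ratios of 0.869 and 0.878. In loop of Henle-like nuclei 0 of 7 were higher, beside 12.8%, and 2 were lower, beside 25.2%. There Bmp2 went from 14 UMIs to 7, a ratio of 0.287 (0.0979 to 0.759), and Bmper from 63.1 to 34.8 CPM, a ratio of 0.552 (0.370 to 0.823), beside medians of -0.32 on the log2 scale for genes of 10 to 20 kb and 0.35 for genes above 200 kb.

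In podocyte-like nuclei 3 of 6 members were higher, beside 18.1%, and 1 was lower, beside 21.5%. Bmpr1b went from 44.0 to 218 CPM, a ratio of 4.95 (3.81 to 6.50) or 2.31 on the log2 scale, beside a median of 0.76 for genes above 200 kb. It was 1.64 without called doublets and 2.37 with Leiden clustering. Of the 124 nuclei in 1 of the 2 podocyte-like clusters at P3, 25% were called doublets. Bmper had a ratio of 2.31 (1.47 to 3.70), Bmp3 of 1.71 and Bmp7 of 0.629 (0.484 to 0.812). In endothelium-like nuclei 3 of 6 were higher, beside 8.80%, and 2 were lower, beside 25.0%. Bmper went from 10.1 to 28.0 CPM, Bmp2 from 7.71 to 18.47 and Bmpr1b from 64.7 to 134, with ratios of 2.78, 2.39 and 2.06, and Bmp4 and Bmp7 had ratios of 0.540 and 0.346. The medians of genes of similar length there were 0.52 on the log2 scale above 200 kb (Bmper and Bmpr1b), -0.39 from 10 to 20 kb (Bmp2), -0.63 from 5 to 10 kb (Bmp4) and 0.11 from 50 to 100 kb (Bmp7).

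The endothelium-like and leukocyte-like nuclei were among the lower classes for Bmpr1a, Bmpr1b and Bmp7 at both ages. In leukocyte-like nuclei too Bmpr1b was higher, at 47.3 and 160 CPM, and Bmp7 lower, at 31.5 and 8.90, and over the whole libraries Bmpr1b was at 382 and 693.5 CPM and Bmp7 at 47.3 and 38.4. The part of free RNA in the levels of these low classes was not tested. Bmpr1a was not called in any of the 9 lineages, with ratios from 0.980 to 1.42.

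Pairs of members were then sought in the same nuclei after thinning to 1000 UMIs. Bmp4 and Bmper fell together in 10 of 5117 interstitium-like nuclei at E18.5, where independent detection gives 8.47, and in 4 of 3177 at P3, where it gives 5.56. Bmp7 and Bmpr1a fell together in 14 of 528 podocyte-like nuclei at E18.5 beside 17.0, and in 15 of 398 early nephron-like nuclei at P3 beside 10.2. Bmpr1a and Bmpr1b fell together in 7 podocyte-like nuclei beside 6.75 at E18.5 and in 14 beside 14.7 at P3. The intervals of the ratio included 1 for all 6 pairs at both ages, and for the pairs with Grem1 no nucleus held both. At this depth no pairing or avoidance was detectable.

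The genes whose level over the 13 E18.5 classes was most like that of each member were found among 12227 genes, with Pearson's r on log2 levels as a description. For Bmper these were Rbm20 (r = 0.935), Vcan (0.932) and Sall1 (0.927), and over the P3 classes r was 0.834, 0.701 and 0.645. For Bmpr1b they were Gm48094, Tpd52l1 and Fgf12, with r from 0.878 to 0.882 at E18.5, of which Fgf12 held 0.856 at P3. For Bmp3 they were Dap (0.960), Mroh3 and Lrrc8e, and for Bmpr1a Zfr2 (0.895), Wdr35 and Pnisr. For Bmp7 they were Igsf9b, Zc3h14 and Zfp788, for Bmp4 Morc4, Zcchc14 and Lrrc41, and for Bmp2 Tmem123, Inip and Etf1. Over the P3 classes r went from 0.490 to 0.703 for the genes of Bmp7, from 0.280 to 0.557 for Bmp4 and from 0.481 to 0.698 for Bmp2. It went from 0.735 to 0.831 for those of Bmp3 and from 0.737 to 0.841 for Bmpr1a. For Grem1, with its few UMIs, they were Prox1 (0.970), Gm3294 and Ak7, and over the P3 classes r was -0.018 for Prox1. The classes share depth and library.

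The other 55 genes of the pathway were taken from a list made by role. At E18.5, 38 of them reached 10 CPM in a class and 6 of these were at least 2 times as high in 1 class as in the next, beside 20.2% of all genes. At P3 40 and 13 did, beside 22.5%. Of the 12 other ligands only Bmp6 reached 100 CPM, and it was highest in interstitium-like nuclei, at 114 and 193. At P3 Bmp6 in interstitium was not apart from that in proximal tubule-like nuclei, at 183, with a ratio of 1.06 (0.996 to 1.12). In contrast with Bmpr1b, it was lower in the papillary-like than in the cortical-like subset, by a ratio of 0.204 (0.169 to 0.246) at E18.5, and of 0.0793 (0.0589 to 0.105) when measured at P3. Between papillary-like and cortical-like nuclei, Bmpr1b was thus higher where Bmp6 was lower. The stromal subclusters led by Zfp536 held Bmpr1b at 554 and 2157 CPM beside Bmp6 at 103 and 106.

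Among the other antagonists and modulators, Fstl1 was highest in ureteric nuclei, at 833 and 713 CPM, Crim1, which encodes a membrane protein that binds BMPs, in early nephron-like nuclei, at 366 and 476, and Sostdc1, an antagonist, in loop of Henle-like nuclei, at 174 and 138. At E18.5 Sostdc1 was not apart from the next class, distal tubule, with a ratio of 1.15 (0.861 to 1.56). Twsg1 reached 108 in intercalated-like nuclei at E18.5, and Bmp1, a protease, 106 in interstitium-like nuclei at P3. Htra1 in podocyte-like nuclei had an age ratio of 2.12. Secreted modulators were thus highest in several classes, not 1.

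Among the other receptors, Eng, a co-receptor of endothelium, was highest in endothelium-like nuclei, at 328 and 333.1 CPM, as was the type II receptor Bmpr2, at 314 and 387. At E18.5 Bmpr2 was not apart from interstitium-like nuclei, with a ratio of 1.06 (0.989 to 1.13). The P3 ratio was 1.13 (1.06 to 1.2). Endothelium-like nuclei thus held the lowest Bmpr1a at both ages and, at P3, the highest Bmpr2. Acvr2a was highest in stalk and collecting duct-like nuclei, at 206 and 265, and Acvr1 reached 136 and 166 in distal tubule-like and interstitium-like nuclei. Rgmb in leukocyte-like nuclei had an age ratio of 0.313, from only 13 UMIs at E18.5 and 6 at P3.

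Of the SMADs, Smad1 and Smad5 were highest in endothelium-like nuclei, at 223 and 228.5 and at 105 and 141, and Smad4 in nephrogenic nuclei, at 179 and 240.5. The inhibitory Smad6 and Smad7 stood at 153 and 341 in stalk and collecting duct-like nuclei at E18.5. There Smad6 was not apart from urothelium-like nuclei, with a ratio of 1.08 (0.785 to 1.51). At P3 Smad6 was highest in nephrogenic (mixed) nuclei, at 277, where Bmper was also highest, while Smad7 stood at 301 there and at 302 in loop of Henle-like nuclei, levels within each other's intervals. The ubiquitin ligases Smurf1 and Smurf2 were highest in endothelium-like nuclei, at 148 and 186 and at 326 and 483. The lead of Smurf1 over the next class at E18.5, 1.30 times (0.925 to 1.88), was not beyond its interval. Bambi, a decoy receptor, had an age ratio of 0.498 in endothelium-like nuclei.

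Among the targets, Id1 was highest in urothelium-like nuclei at both ages, at 208 and 214 CPM, the named class in which Bmp2 and Bmp3 were highest. For Bmp2 at E18.5 this rested on 7 UMIs and was not apart from the next class, with a ratio of 1.35 (0.461 to 3.57). Id2 was highest in intercalated-like nuclei at E18.5, at 173.5, and in proximal tubule-like nuclei at P3, at 117.5, and Id3 in stalk and collecting duct-like nuclei at E18.5, at 263, and in nephrogenic (mixed) nuclei at P3, at 135. Over the next class, Id2 at E18.5 stood at 1.21 (0.874 to 1.655), and Id3 at 1.205 (0.953 to 1.54). At P3 Id3 stood at 1.04 (0.888 to 1.23), so that none of these leads passed its interval. The P3 lead of Id2 over loop of Henle-like nuclei, 1.22 (1.02 to 1.46), did pass its interval. The age ratios of Id1 and Id3 were 0.464 and 0.421 in endothelium and 0.582 and 0.510 in interstitium. Id3 was at 0.278 in leukocyte-like nuclei. These genes are 1.16 kb and 2.26 kb long, and the median of all genes below 5 kb was -1.05 on the log2 scale in endothelium and -1.12 in interstitium, beside -1.11 and -1.25 for Id1 and Id3 in endothelium. Larger falls were found elsewhere: Id3 stood at -1.79 in proximal tubule-like nuclei, beside -0.90 for genes below 5 kb, and at -1.85 in leukocyte-like nuclei, beside -0.91. In the Eya1-rich subclusters, where Bmper was 2.58 times as high at P3, Id1 and Id3 had ratios of 1.14 (0.970 to 1.33) and 0.933 (0.833 to 1.04). Id2, 3.34 kb long, had a ratio of 1.28 (1.11 to 1.47) there. Over the whole nephrogenic lineage the median of genes below 5 kb was -0.85 on the log2 scale.

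**Figure D5:**
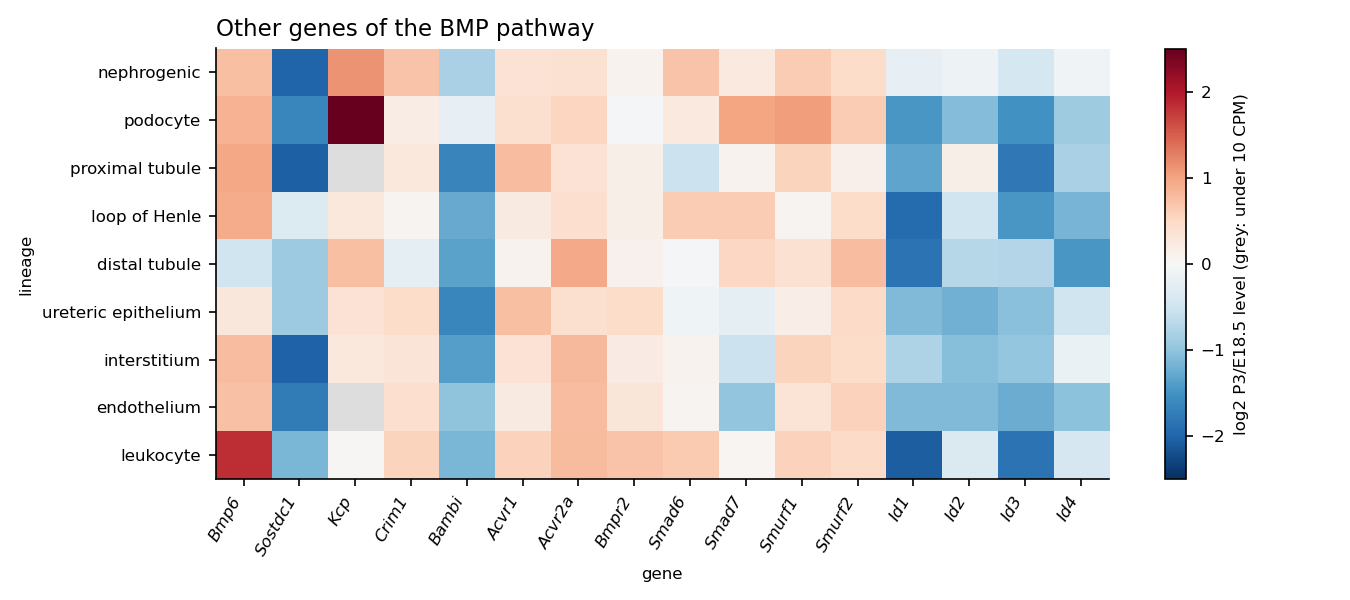
Log2 of the P3 over E18.5 ratio of 16 genes of the BMP pathway (columns) in 9 lineages (rows); grey stands for levels under 10 CPM at both ages. Bmp6 lay at 0.76 in both nephrogenic nuclei and interstitium, and Id1 and Id3 lay below 0 in all 9 lineages, as the medians of genes below 5 kb did.

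The genes of the list called higher or lower were counted in each lineage, beside the shares of all genes called in the same direction. In nephrogenic nuclei 5 of 30 were higher, beside 7.98%, and 3 were lower, beside 19.5%. In interstitium-like nuclei 4 of 30 were higher (7.12% of all genes) and 5 lower (24.5%). Of the epithelia, ureteric epithelium had 2 of 30 higher (8.62%) and 9 lower (23.8%), proximal tubule 2 of 25 (10.6%) and 10 (26.1%), loop of Henle 3 of 28 (12.8%) and 4 (25.2%), and distal tubule 3 of 25 (15.4%) and 7 (32.7%). Podocyte-like nuclei had 9 of 29 higher (18.1%) and 5 lower (21.5%), endothelium-like nuclei 2 of 27 (8.80%) and 10 (25.0%), and leukocyte-like nuclei 7 of 27 (21.3%) and 8 (26.3%). The median log2 ratio of the list was 0.16 in nephrogenic nuclei, beside -0.08 for all genes tested, and 0.04 in interstitium-like nuclei, beside -0.15.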

How the data were processed

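Nuclei of whole mouse kidneys were profiled by droplet sequencing, with 1 library at E18.5 and 1 at P3. The authors deposited filtered matrices of UMI counts per gene and barcode, aligned to mm10. The submitters' notes name Cell Ranger 5.0.1 for both, whereas the matrix headers name 7.0.0 for E18.5 and 5.0.1 for P3. Barcodes whose log UMIs or genes fell below the median by over 3 median absolute deviations, or above that of the mitochondrial share (at least 0.5 percentage points above the median), were removed, which left 21270 and 11765 nuclei. Scrublet in scanpy 1.11.5 called 16.4% and 16.8% of them doublets at an expected rate of 0.1; these were kept, and removed as an alternative. Counts were normalised with scran 1.30.0, and 2000 variable genes, without the members and pathway genes (63 in all), gave 50 components, a graph with 10 neighbours and Walktrap clusters (26 and 35). A cluster took a class name when at least 3 markers of the class were raised 2-fold and no other class rivalled them; how rivals, mixed clusters and clusters over 50% doublets were treated was settled after the clusters had been seen. Interstitium and nephrogenic nuclei were clustered again alone.

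Levels were summed UMIs scaled to 1000000 (CPM) with exact Poisson intervals, ratios had exact conditional binomial intervals and shares exact binomial intervals (95%). The limits given for 0 UMIs were set at 3 UMIs, which is lower than the upper end of the exact Poisson interval. Nuclei are not replicates, and with 1 library an age no test was run. Gene lengths and coordinates came from GENCODE M21 (GRCm38), which matched 99.6% of identifiers. All 8 members were named, with the pathway genes that reached 100 CPM or had a 2-fold age ratio in their highest class (except 1 gene that is not reported here), and the 3 genes most like each member over genes with at least 20 CPM in a class, on log2 of the level plus 10. The genes of matched or singled-out subclusters were chosen after their values were seen. Members and lists were chosen with earlier results of these data known. Alternatives were removal of doublets, Leiden clustering and equal weight per nucleus, and the level and ratio code was tested on simulated data.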

Additional observations from a re-analysis of the deposited data

Results flagged for a closer look

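For 3 members the P3 over E18.5 ratio was past 1.5 in opposite directions in 2 lineages, with intervals that left out 1. The difference between lineages was not tested. Bmp2 was 2.72 in the nephrogenic lineage and 0.287 in loop of Henle-like nuclei, the latter from 14 and 7 UMIs. Without called doublets these were 2.12 and 0.242. Bmper was 2.78 in endothelium-like nuclei, where it was near its lowest level at E18.5, and 0.552 in loop of Henle-like nuclei. Bmpr1b was 4.95 in podocyte-like nuclei and 0.391 in proximal tubule-like nuclei. Without called doublets these were 1.64 and 0.592, and with Leiden clustering 2.37 and 0.463. Bmp3 was also past 1.5 in opposite directions. It was 1.71 in podocyte-like and 2.03 in leukocyte-like nuclei, beside 0.434 in the nephrogenic lineage and 0.199 in proximal tubule-like nuclei. The intervals of both higher Bmp3 ratios included 1.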

How the results depend on the processing

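No recomputed ratio of the highest class to all other nuclei, and no recomputed age ratio of a lineage, changed direction under an alternative. Ratios for stromal subsets, subclusters and matched clusters were not recomputed. Ratios of the highest class to all other nuclei and age ratios stayed within their intervals in 13 of 18 cases with Leiden clustering, 17 of 24 without called doublets and 15 of 24 with equal weight per nucleus. These counts include Grem1, whose intervals were so wide (0.307 to 86.8 for its highest class at P3) that a shift could hardly leave them. With Leiden clustering the ratio of the highest class to all other nuclei was 2.001 for Bmp4 and 6.10 for Bmper at E18.5 (levels 62.9 and 537 CPM) and 10.4 for Bmper at P3 (881 CPM), and the age ratio was 0.543 for Bmp3 and 1.23 for Bmpr1b in ureteric epithelium. Without called doublets that ratio was 7.16 for Bmper (529 CPM) and 4.97 for Bmpr1b at E18.5, and 1.01 for Bmp7 (39.0 CPM) and 19.4 for Bmper (843 CPM) at P3, and the age ratio was 0.644 for Bmp3 and 1.27 for Bmpr1b in ureteric epithelium and 1.89 for Bmper in the nephrogenic lineage. With equal weight per nucleus it was 2.92 for Bmp7, 5.95 for Bmper, 1.64 for Bmpr1a and 4.94 for Bmpr1b at E18.5, and 3.30 for Bmp2, 11.7 for Bmp3, 14.5 for Bmper and 1.85 for Bmpr1a at P3, and the Bmper age ratio was 1.88. The cause of these shifts was not tested. Among age ratios added after seeing the data, that of Bmpr1b in interstitium-like nuclei was 3.18, 3.21 and 3.12 without called doublets, with Leiden clustering and with equal weight. In the nephrogenic lineage, in the same order, that of Bmpr1b was 1.64, 1.72 and 1.86, and that of Bmp2 was 2.12, 2.46 and 2.635. Leiden clustering gave no value for 6 results whose class it did not name. No paired analysis was possible because each age had 1 library. Depth limits Grem1, Bmp2 and Bmp3 in classes under 100 nuclei.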
